A study of Mus musculus with 3 samples.

Results

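Cones dominated by S-opsin are the cone photoreceptors in which Opn1sw, the gene of the short-wavelength opsin, has more reads than Opn1mw, the gene of the middle-wavelength opsin. They were chosen by their reads of marker genes and of both opsin genes in 3 single-cell libraries of mouse retina. A kept barcode had at least 500 detected genes and at most 20% mitochondrial reads. A cone had at least 2 reads in at least 4 of 7 cone genes (Arr3, Gnat2, Pde6h, Pde6c, Gngt2, Cnga3 and Cngb3), and fewer than 4 of 5 Müller glia genes (Rlbp1, Slc1a3, Aqp4, Kcnj10 and Car14) with 3 or more reads. An S-opsin cone had at least 5 Opn1sw reads and more Opn1sw than Opn1mw reads, and an M-opsin cone is defined the same way with the opsins exchanged. The rule found 1106 S-opsin cones among 2373 cones, 25237 kept barcodes and 26696 barcodes in all. There were 439 in the wild-type (WT) library, 423 in the Tspan12 knockout (KO) library and 244 in the library of Tspan12 KO mice given F4L5.13 (treated KO). All mice were P26 and all samples, WT included, carry the strain label Tspan12tm1.2Hjug. TSPAN12 helps the ligand Norrin to signal through FZD4 and LRP5 in retinal endothelial cells, and F4L5.13 is an antibody that joins FZD4 and LRP5 and switches the pathway on without the ligand. Doses were intraperitoneal, first 10 mg/kg (P6, P9, P12), then 4 mg/kg with 3 days between doses. Retinas were dissociated with papain, and beads carrying anti-CD73 and Annexin V took out photoreceptors and dead cells before loading, so the cones are those left after that step. Each group is 1 library, and the labels do not say how many animals it holds. A difference between libraries therefore has no replicate check and no test, and its 95% interval covers counting error only.

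Most mouse cones make both opsins in proportions that follow a dorsal to ventral gradient, with S-opsin dominant in the ventral retina, and a small group of true S-cones makes S-opsin alone. Thyroid hormone acting through the receptor TRβ2 (Thrb), together with its partner RXRγ (Rxrg), represses S-opsin and is needed for M-opsin. Both opsins feed the same cone cascade of transducin (Gnat2), phosphodiesterase (Pde6c, Pde6h), the cyclic nucleotide channel (Cnga3, Cngb3) and cone arrestin (Arr3).

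The promoters of both opsin genes are shown because the regulators compared below are known to act on opsin promoters. The 250 bases before each RefSeq start site (build GRCm38.p6, 5′ to 3′ on the gene's strand) lie at chr6:29380514-29380763 on the minus strand for Opn1sw and at chrX:74127216-74127465 on the plus strand for Opn1mw. Capitals mark AGGTCA, the core hexamer of many nuclear receptor sites, on either strand. TAATCC, a core of sites for the photoreceptor factor CRX, was searched the same way.
Opn1sw: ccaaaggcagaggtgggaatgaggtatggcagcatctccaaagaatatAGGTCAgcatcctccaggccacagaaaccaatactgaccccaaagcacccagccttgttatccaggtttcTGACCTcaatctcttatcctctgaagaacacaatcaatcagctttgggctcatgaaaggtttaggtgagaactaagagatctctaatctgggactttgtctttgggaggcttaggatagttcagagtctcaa
Opn1mw: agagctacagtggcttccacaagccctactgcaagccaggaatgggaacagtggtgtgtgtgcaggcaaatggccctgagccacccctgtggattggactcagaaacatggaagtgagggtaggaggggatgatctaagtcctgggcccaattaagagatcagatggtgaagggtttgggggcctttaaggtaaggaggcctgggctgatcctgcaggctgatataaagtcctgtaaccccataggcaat
The Opn1sw window holds AGGTCA on the gene's own strand from 202 to 197 bases before the start and on the opposite strand from 132 to 127 bases before it. TAATCC is in neither window and AGGTCA is not in that of Opn1mw. AGGTCA or its complement TGACCT occurs in 14.0% of the 32851 RefSeq promoter windows of the same length, and TAATCC or GGATTA in 6.25%. These are letter matches only.

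The members carried high levels of cone markers. Levels of genes in the rule are a description without a test. Opn1sw stood at 18628, 17879 and 14638 CPM (counts summed over cones and scaled to their total) in the WT, KO and treated KO libraries, against 884, 530.4 and 549 CPM in M-opsin cones. Opn1mw stood at 3615, 2506 and 4031 CPM in S-opsin cones and 9227, 7143 and 7772 CPM in M-opsin cones. Both opsins were thus read in S-opsin cones, whereas the summed level of Opn1sw was low in M-opsin cones. Still, 25.4%, 21.1% and 21.4% of M-opsin cones had at least 5 Opn1sw reads, and 52.5%, 58.1% and 62.3% had 0. Of the other markers, Arr3 stood at 1249, 996 and 1002 CPM, Gnat2 at 2395, 2169 and 2227 CPM and Pde6h at 11343, 10713 and 10175 CPM. Gnb3, the cone transducin β subunit, was not used by the rule and stood at 4096, 4662 and 3663 CPM. The kept barcodes outside the cones had Opn1sw at 129.6, 235 and 101 CPM. An Opn1sw read was found in 19.3%, 14.5% and 7.55% of those other barcodes, whose median depths were 15719, 7234 and 7730 reads, and an Opn1mw read in 15.1%, 6.84% and 9.30%, which are the background shares.

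Per barcode, the median number of Opn1sw reads was 295 in WT, 280 in KO and 256.5 in treated KO S-opsin cones, with median total depths of 12624, 12539 and 14760 reads and 2617, 2704 and 2750.5 detected genes. Few cells lay near the threshold of 5 reads. In all 2, 3 and 2 members had 5 to 9 Opn1sw reads, and 8, 9 and 1 cones with more Opn1sw than Opn1mw fell short of 5 reads. At the other edge, Opn1sw made up between 50.2% and 50.7% of both opsins' reads in the least pure member of each library. In the least pure M-opsin cone of each library it made up between 49.0% and 49.7%. Cones with equal reads of both opsins numbered 34, 9 and 13. An Opn1sw share under 60% was found in 29, 17 and 27 members. A share of 40% or more was found in 28, 10 and 23 M-opsin cones. No barcode sequence of an S-opsin cone occurred in S-opsin cones of another library, while 15, 12 and 29 kept barcodes were shared between WT and KO, WT and treated KO, and KO and treated KO.

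**Figure D1:**
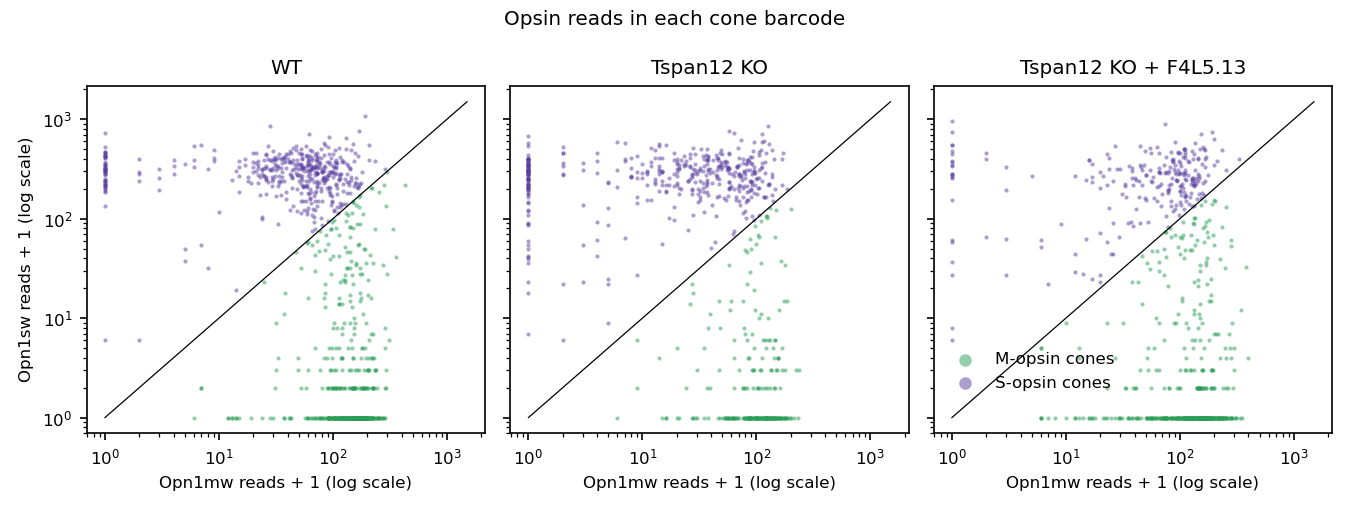
Reads of Opn1sw against Opn1mw in each S-opsin cone (purple) and M-opsin cone (green), 1 panel per library, both axes logarithmic after adding 1 read. S-opsin cones form a band at a median of 295, 280 and 256.5 Opn1sw reads that runs from 0 Opn1mw reads up to the diagonal, on which both opsins have the same number of reads.

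S-opsin cones made up 48.3% (45.1 to 51.7) of the cones dominated by either opsin in the WT library, 63.2% (59.4 to 66.9) in the KO library and 34.3% (30.8 to 37.9) in the treated KO library. The intervals (Clopper-Pearson, 95%) cover the counting of cells in 1 library each, and the shares rest on the opsin reads that the rule used, so they are a description of these libraries. With every barcode thinned to 3000 reads and the rule applied anew, the shares were 46.5%, 62.6% and 34.1%. With a leading opsin at least 10 times the other required of both kinds they were 27.2%, 50.9% and 11.6%. Cones as a whole were 15.7%, 6.71% and 8.21% of kept barcodes. With 1 bead-depleted suspension per group, cell recovery and genotype or treatment cannot be told apart.

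The purity of the S-opsin cones, which also rests on the reads of the rule, is described per library. Opn1sw was at least 10 times Opn1mw in 140 of 439 WT members (31.9%, 27.6 to 36.5), in 215 of 423 KO members (50.8%, 46.0 to 55.7) and in 51 of 244 treated KO members (20.9%, 16.0 to 26.5). After thinning to 3000 reads these shares were 31.4%, 51.3% and 22.6%. The median share of Opn1sw in both opsins' reads was 85.1%, 90.9% and 77.9%. No Opn1mw read at all was found in 47, 83 and 22 members, which is 10.7%, 19.6% and 9.02%. At least 5 Opn1mw reads were found in 86.1%, 74.0% and 87.7% of members. The KO library held the largest share of pure S-opsin cones and the treated KO library the smallest.

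**Figure D2:**
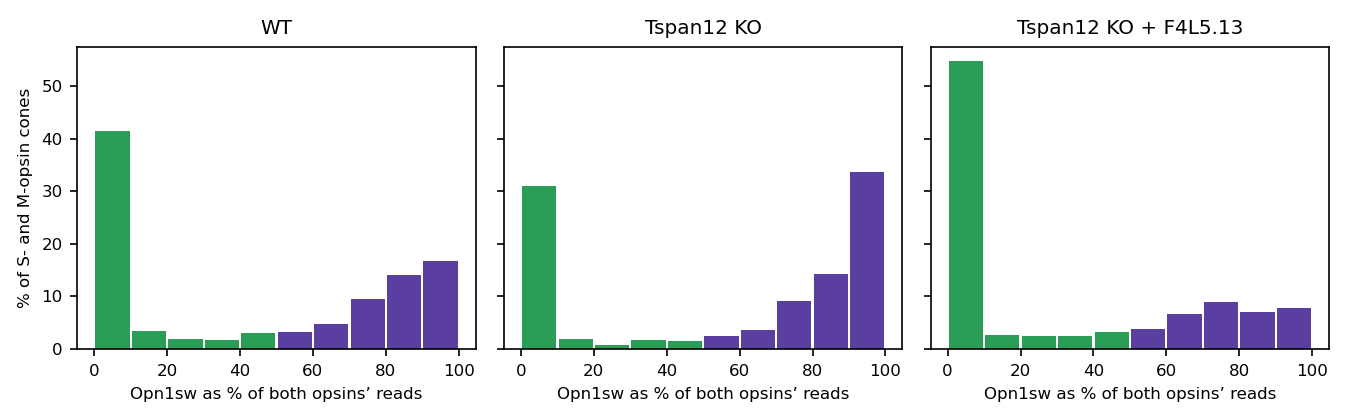
Share of S- and M-opsin cones (y axis, percent) in 10 equal steps of Opn1sw as a percentage of both opsins' reads (x axis), 1 panel per library, with S-opsin cones in purple. The highest step holds 16.7% of the cones in WT, 33.6% in KO and 7.88% in treated KO.

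Many members also carried RNA of other cells. Markers of another cell type (rod, Müller, bipolar, amacrine, microglial, endothelial or mural) were found in 140 WT (31.9%), 168 KO (39.7%) and 92 treated KO (37.7%) S-opsin cones, mostly rod markers (95, 112 and 68 members). Those barcodes had median depths of 22091, 19000 and 23979 reads, against 11659, 11204 and 12865 in the remaining 299, 255 and 152. No doublet caller was run. The summed level of the 16 rod markers in S-opsin cones was 40593, 25049 and 31679 CPM, that of the 10 amacrine markers 133, 553 and 196 CPM, that of the 10 microglial markers 16.2, 141 and 16.4 CPM and that of the 12 Müller markers 1219, 1780 and 1574 CPM. The 9 ganglion cell markers summed to 18.4, 39.9 and 27.8 CPM, the 6 astrocyte markers to 6.89, 9.93 and 7.88 CPM and the 8 mural markers to 26.6, 3.31 and 3.28 CPM. Of these Pou4f2, Pou4f3, Pax2 and Acta2 were at 0 in all 3 libraries. Comparisons of libraries below are given for all members, and values called "cleaned" are for the members without such markers. Cleaned values of genes whose reads were used for this choice are a description.

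Which genes other than the opsins set S-opsin cones apart was asked by comparing them with the M-opsin cones of the same libraries, with reads summed per library and kind and the library as a block (edgeR, quasi-likelihood test). Of 14580 genes tested, 84 were higher in S-opsin cones (0.576%) and 95 were lower (0.652%) at an adjusted p below 0.05, in all 1.23%. Of the 179, 177 had the same sign in every library. Both opsins and Arr3 passed but belong to the rule and are not results. Without the library block 18 genes passed, without the WT library 80, without the KO library 86 and without the treated KO library 262.

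A large excess in S-opsin cones lay beside the opsin gene itself. Ccdc136 (chr6:29396309-29426994, plus strand) begins 7.84 kb from Opn1sw (chr6:29376671-29388468, minus strand) in the GENCODE annotation of build GRCm38, whose Opn1sw gene reaches beyond the RefSeq start used for the promoter, so the distance from that start is larger. It stood at 925, 1034 and 768 CPM in the S-opsin cones of the WT, KO and treated KO libraries against 134, 134 and 126 CPM in M-opsin cones, a log2 difference of 2.79 (SE 0.07, adjusted p = 3.56e-13). Every S-opsin value was above every M-opsin value. On the other side, Calu, which encodes a calcium-binding protein of the secretory pathway, overlaps the 3′ end of Opn1sw by 440 bases on the opposite strand. Calu had 716, 754 and 527 CPM in S-opsin cones and 54.1, 42.9 and 36.9 CPM in M-opsin cones. Because the strand setting of the counting is not given, Opn1sw reads and Calu reads cannot be told apart there, and its difference of 3.90 is a description. Tex28, which lies 184 bases from Opn1mw without an overlap, is likewise given as a description, at 7.03, 4.81 and 7.88 CPM against 23.9, 13.7 and 11.8 CPM.

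Among transcription factors, En2 and Vax2 were higher in S-opsin cones. En2, an engrailed homeobox factor known from midbrain and cerebellar patterning, stood at 12.1, 20.8 and 3.72 CPM in S-opsin cones and at 0.818, 0.28 and 0.246 CPM in M-opsin cones, with a log2 difference of 4.42 (SE 0.47, adjusted p = 4.57e-05). En2 is a low transcript, found in 8.66%, 17.0% and 4.10% of S-opsin cones and in 0.853%, 0.407% and 0.214% of M-opsin cones, whose median depths were 12925, 12297 and 14762 reads. In the other kept barcodes it was found in 0.0780%, 0.199% and 0.0733%. Vax2, a homeobox factor of the ventral retina, stood at 37.3, 57.3 and 26.3 CPM against 3.95, 16.3 and 6.39 CPM, a difference of 2.33 (SE 0.23, adjusted p = 1.74e-05). Vax2os, which runs antisense to Vax2 and overlaps it by 938 bases, stood at 142, 172 and 134 CPM against 22.4, 57.5 and 52.2 CPM, with a difference of 1.85 that was 0.86 (adjusted p = 0.14) in the cleaned barcodes. Vax2os was named after its values were seen, and reads in the overlap cannot be told apart from those of Vax2. For En2, Vax2 and Vax2os every S-opsin value was above every M-opsin value.

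Other genes among the 12 highest folds follow. Syndig1l, a relative of a protein that promotes excitatory synapse development, stood at 175, 188 and 254 CPM against 32.9, 23 and 58 CPM, a log2 difference of 2.46 (SE 0.12, adjusted p = 3.02e-09). Lrrc4, a synaptic adhesion protein, stood at 22.2, 18.7 and 26 CPM against 5.18, 3.08 and 7.62 CPM, a difference of 2.09 (SE 0.24, adjusted p = 8.5e-05). Cdcp3 stood at 78.1, 31.9 and 58 CPM against 13.6, 6.17 and 16.7 CPM, a difference of 2.21 (SE 0.17, adjusted p = 9.22e-07). Dnaic1, a dynein intermediate chain of motile cilia, had its highest value in KO S-opsin cones (9.43, 38.5 and 9.41 CPM against 2.04, 3.64 and 4.79 CPM, log2 difference 2.15, SE 0.36, adjusted p = 0.00478), and its adjusted p was 0.103 without the WT and 0.193 without the KO library. The remaining 4 of the 12 highest folds were the gene models Gm43847 (2.54) and Gm12404 (2.14), the MHC class I gene H2-Q6 (2.37), whose near-identical relatives make its counts uncertain, and Lhx1 (2.63). Lhx1 marks horizontal cells, and the 5 horizontal cell markers measured were all above 0 in this comparison, with summed levels of 58.1, 182 and 193 CPM in S-opsin and 52.1, 88.0 and 106 CPM in M-opsin cones. Lhx1 had too few reads for a test among the cleaned barcodes, and without the WT or the KO library its adjusted p was 0.137 and 0.277. Without the WT library the adjusted p was 0.32 for Gm43847, 0.234 for Gm12404 and 0.143 for H2-Q6. Without the KO library it was 0.278 for Gm43847, and without the treated KO library 0.0639 for H2-Q6.

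The M-opsin side was led by 1 chromosomal neighbourhood. Nr2f2 (chr7:70351944-70366735, minus strand) encodes COUP-TFII, an orphan nuclear receptor known for dorsal expression in the eye. It stood at 10.4, 4.21 and 13.1 CPM in S-opsin cones and 53.6, 51.3 and 55.8 CPM in M-opsin cones, a log2 difference of -2.57 (SE 0.21, adjusted p = 2.59e-06) that was -4.44 in the cleaned barcodes. Another 5 of the 12 largest deficits lay near it, the farthest 208 kb away: B130024G19Rik, which overlaps it (5.91, 5.42 and 5.25 CPM against 79.8, 74.6 and 56.2 CPM), so that reads there cannot be assigned to either, and the gene models Gm28258, Gm44532, Gm35842 and Gm44812. Their log2 differences were -3.65, -3.77, -3.55, -3.27 and -3.19. B130024G19Rik, Gm44532, Gm44812 and Nr2f2 kept an adjusted p below 0.05 in each of the 14 alternatives run. For Gm35842 it was 0.102 without the WT and 0.148 without the KO library. Aldh1a1, the retinaldehyde dehydrogenase of the dorsal retina, stood at 0.422, 1.81 and 5.03 CPM against 10.9, 13.7 and 9.59 CPM, a difference of -2.47 (SE 0.49, adjusted p = 0.016). Its adjusted p was 0.245 without the WT and 0.144 without the KO library. Aldh1a1 was read in 0.683%, 0.946% and 2.46% of S-opsin cones and in 2.99%, 4.47% and 4.07% of M-opsin cones. In the other kept barcodes it was read in 21.4%, 8.51% and 12.5%. All 7 tested Müller markers were below 0 in this comparison, and the part of RNA from other cells in the Aldh1a1 values was not tested.

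Other genes lower in S-opsin cones included a repair enzyme and nicotinic receptor subunits. Smug1, a uracil-DNA glycosylase of base excision repair, stood at 57.3, 41.1 and 52.5 CPM against 201, 209.7 and 144 CPM, a log2 difference of -1.85 (SE 0.12, adjusted p = 1.31e-07). The nicotinic receptor gene Chrna3 stood at 2.53, 2.71 and 6.56 CPM against 5.86, 21.9 and 13.8 CPM (log2 difference -1.73, SE 0.37, adjusted p = 0.0268), with an adjusted p of 0.103 without the WT and 0.357 without the KO library. Its partner subunit gene Chrnb4, named after its values were seen, stood at 11.1, 11.6 and 19.5 CPM against 22.1, 44.3 and 49.5 CPM (log2 difference -1.41, SE 0.18, adjusted p = 0.000407). Myocd (-2.51), Alpk2 (-2.95) and D930007P13Rik (-2.66) completed the 12 largest deficits, all low transcripts. Without the WT library their adjusted p was 0.116, 0.164 and 0.0603, and that of Alpk2 was 0.104 without the KO library. D930007P13Rik (chr15:103123070-103146828) lies near Smug1 (chr15:103153290-103167092), both on the minus strand, and whether their differences are separate was not tested.

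**Figure D3:**
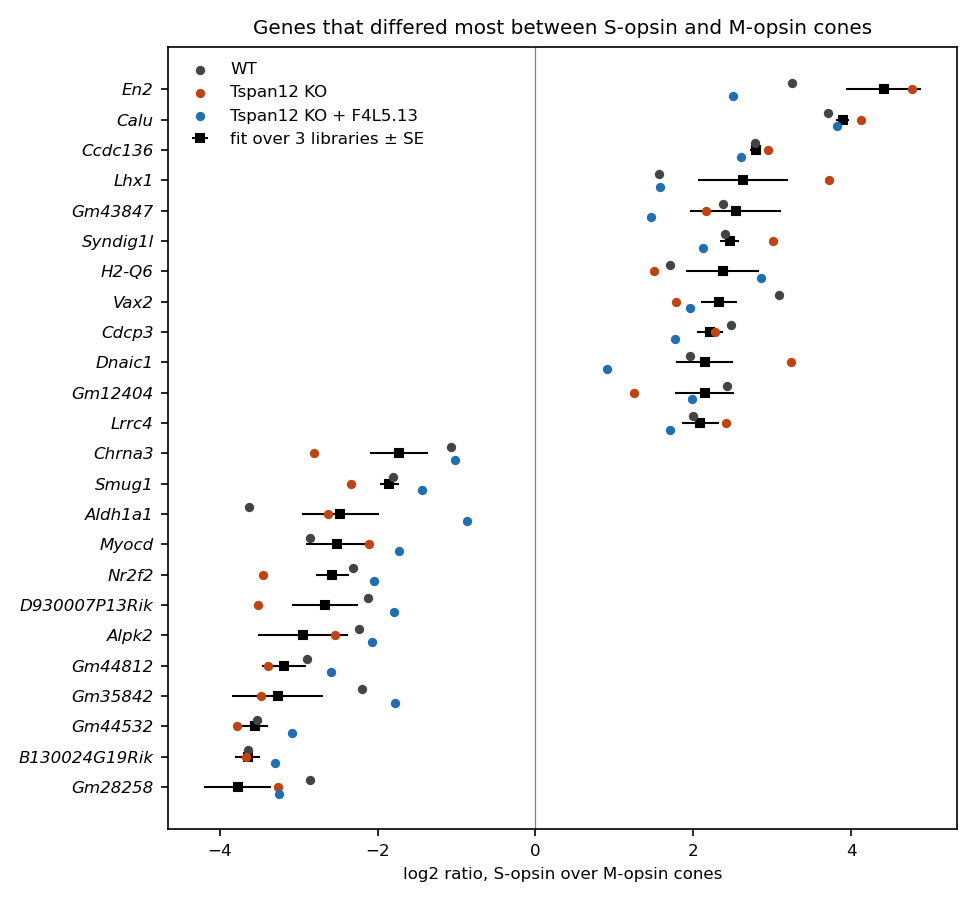
Log2 ratio of S-opsin over M-opsin cones for the 12 highest and 12 lowest folds among genes outside the rule that passed the test with 1 sign in all libraries. Squares with bars show the fit and its standard error, and coloured points show each library (with 0.5 CPM added to each level). All points of a gene lie on the same side of 0.

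Among 27 tested regulators of opsin choice, 2 were higher in S-opsin cones (Vax2 and Rxrg) and 3 lower (Samd7, Nr2f2 and Thrb), with a list median of 0.08. Of all genes tested 0.576% were higher and 0.652% lower, and of 14567 genes outside the rule 7285 were above 0. Thrb stood at 504, 459.7 and 562 CPM in S-opsin and 636, 626 and 694 CPM in M-opsin cones, so the receptor was abundant in both, with a log2 difference of -0.34 (SE 0.06, adjusted p = 0.0045). Its adjusted p was 0.141 without the KO library and 0.0714 in the cleaned barcodes. Rxrg went the other way, at 70.8, 71.9 and 74 CPM against 58.2, 50.2 and 46.8 CPM (log2 difference 0.50, SE 0.10, adjusted p = 0.0247), with an adjusted p of 0.111, 0.144 and 0.0968 without the WT, KO and treated KO library in turn. Samd7, a Polycomb-associated repressor of photoreceptors, stood at 44.2, 46 and 43.5 CPM against 99.4, 126 and 115 CPM, a difference of -1.32 (SE 0.10, adjusted p = 7.17e-07) that passed in all 14 alternatives. The photoreceptor factor Crx stood at 629, 642 and 684 CPM against 631, 689.6 and 687 CPM with an adjusted p of 0.963. The 3′ tags read Thrb as a whole and do not separate its TRβ1 and TRβ2 forms.

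In the phototransduction cascade 3 of 15 tested cone genes outside the rule were higher in S-opsin cones (median 0.12), where 0.576% of all genes tested were higher. Guca1a, a guanylate cyclase activating protein, stood at 5710.4, 5659.8 and 5916 CPM against 4273, 3612 and 4268 CPM (log2 difference 0.53, SE 0.05, adjusted p = 1.37e-05). Guca1b, its relative, differed by 0.36, and the opsin kinase Grk1 by 0.32. Without the WT library their adjusted p was 0.2 and 0.175, and without the KO library 0.113 and 0.0793. Kcne2, a potassium channel subunit and cone marker, stood at 834, 590.3 and 886 CPM against 535, 376 and 592 CPM (log2 difference 0.64, SE 0.06, adjusted p = 4.83e-06). In members with Opn1sw at least 10 times Opn1mw Kcne2 stood at 684, 542 and 563 CPM, and in the other members at 908, 634 and 975 CPM. In the treated KO library the 51 purer members (563 CPM, 482 to 652) were thus near the M-opsin cones (592 CPM, 562 to 622). Sag, the arrestin of rods that cones also make, stood at 9029.6, 5609.7 and 6553 CPM against 6696, 3551 and 5153 CPM (log2 difference 0.50, SE 0.06, adjusted p = 9.42e-05), and all 16 rod markers were above 0 here with a median of 0.12 while only Sag passed. Cone arrestin Arr3, a rule gene, ran the other way, at 1249, 996 and 1002 CPM in S-opsin and 2032, 1323 and 1139.8 CPM in M-opsin cones, given without a test.

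At the synapse 3 of 27 tested genes were higher in S-opsin cones (median 0.03), against the same 0.576% of all genes. Elfn2, an adhesion protein that recruits group III metabotropic glutamate receptors, stood at 34.7, 62.1 and 49.2 CPM against 22.2, 18.8 and 21.6 CPM (log2 difference 1.17, SE 0.17, adjusted p = 0.00121). Nrxn3 differed by 0.59 and the release factor Unc13b by 0.35, the latter with an adjusted p of 0.158 without the WT and 0.141 without the KO library. In metabolism Ldhb, the lactate dehydrogenase subunit of oxidative tissues, was lower (116, 123 and 133 CPM against 177, 202 and 179 CPM, log2 difference -0.57, SE 0.08, adjusted p = 0.000485), 1 of 23 glycolysis genes. Of 24 photoreceptor injury genes 14 were below 0 (median -0.08) and 2 were higher in S-opsin cones, Kcne2 and Socs3, the feedback inhibitor of cytokine signalling (37, 49.3 and 74.2 CPM against 13.4, 23 and 8.97 CPM, log2 difference 1.89, SE 0.25, adjusted p = 0.000489). Cabp5, a calcium-binding protein used as a bipolar marker, was higher too (182, 135 and 177 CPM against 108, 77.6 and 89.2 CPM, log2 difference 0.86, SE 0.08, adjusted p = 7.53e-06), with 13 of 14 bipolar markers above 0 (median 0.24). In the cleaned barcodes the Cabp5 difference was 2.71 and that of the bipolar marker Pcp4 was 0.37 with an adjusted p of 0.78. Both genes are on the bipolar list used for cleaning, so these cleaned values are shaped by that choice.

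Within the S-opsin cones some genes followed opsin purity. These genes were picked after their values were seen, and their levels are a description, over pure members (Opn1sw at least 10 times Opn1mw), mixed members and M-opsin cones. Thrb stood at 278 CPM (244 to 315) in pure and 617 CPM (580.1 to 654) in mixed WT members, with M-opsin cones at 636 CPM. In the KO library it was 338, 569 and 626 CPM, and in the treated KO library 234, 652 and 694 CPM. The low Thrb level of S-opsin cones was thus found in the pure members, and the mixed members were near the M-opsin cones in all 3 libraries. When both kinds were limited to cones with a 10-fold leading opsin, the Thrb difference was -1.22 (adjusted p = 0.000285).

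Ralyl, an RNA-binding protein, ran the other way. It stood at 59.4 CPM (43.9 to 77.6) in pure, 15.6 CPM (10.2 to 22.6) in mixed and 10.1 CPM in M-opsin cones of WT. The KO values were 121, 63.1 and 26.6 CPM and the treated KO values 41.6, 15.1 and 7 CPM. Wscd2 and the T-type calcium channel gene Cacna1h had the same order in every library, with Wscd2 at 47.5, 17.3 and 8.59 CPM and Cacna1h at 84, 44.6 and 25.4 CPM in WT. Gzmm and Chrnb4 increased from pure S-opsin to M-opsin cones, Gzmm from 310.4 through 453 to 755 CPM in WT. By contrast Syndig1l had no such order, at 146, 193 and 179.8 CPM in pure and 189.9, 184 and 274 CPM in mixed members of the WT, KO and treated KO libraries.

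**Figure D4:**
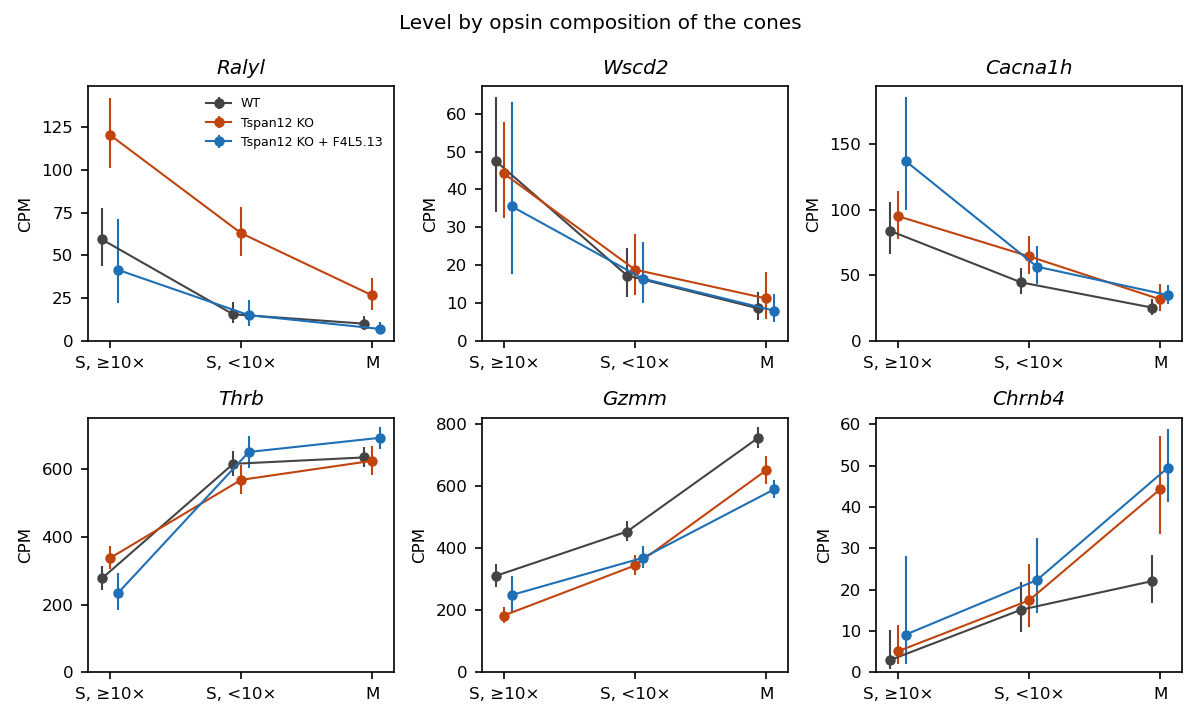
CPM of 6 genes in S-opsin cones with Opn1sw at least 10 times Opn1mw, in the other S-opsin cones and in M-opsin cones, with 1 line per library and 95% Poisson intervals as bars. Ralyl, Wscd2 and Cacna1h are highest in the pure S-opsin cones, and Thrb, Gzmm and Chrnb4 are lowest there.

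Whether Tspan12 loss or the antibody went with other changes was then examined in the S-opsin cones alone, as ratios of CPM between libraries. The deposited values behave as reads, several per molecule, so intervals rest on molecule equivalents, the reads divided by 2.73, 2.76 and 3.16. A gene was called by size when its ratio was 2 or more either way and the interval bound nearest to 1 was past 1.5. It also needed 30 molecule equivalents and 10% of cones with a read in the library where it was higher, with under 50% of its reads in its top 5 cells. Tspan12 itself gives no check here. It stood at 0.844, 3.46 and 0.875 CPM in S-opsin cones, where 3 molecule equivalents per library correspond to 1.15, 1.25 and 2.08 CPM, and at 26.8, 17.1 and 14.2 CPM over all kept barcodes. The labels do not give the deleted part of the gene.

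In the KO against the WT library 113 of 8964 genes were called higher (1.26%) and 7 lower (0.0781%), with a median log2 ratio of 0.12 over all of them. With TMM scaling, under which that median was -0.05, 68 were higher and 27 lower. Among cleaned barcodes 28 were higher and 9 lower, and 15 and 3 genes were called both times. The same call was also made in M-opsin cones for 30 of the 113, which is 26.5% of the S-opsin list. It is 48.4% of the 62 of 8654 genes (0.716%) called higher in M-opsin cones. The direction was the same for 110 of the 113 in M-opsin cones and for 94 in the other kept barcodes. The share of all genes with the same direction is not given here, and no difference between the kinds of cone was tested.

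The genes called both with and without the mixed barcodes, which were picked after their values were seen, were followed first. Ptprn, a protein of dense-core secretory granules, stood at 63.3, 212 and 88.8 CPM in the WT, KO and treated KO libraries. Its KO to WT ratio was 3.35 (2.8 to 4.02), or 3.74 cleaned, and 3.06 in M-opsin cones. The median KO member had 142 CPM of Ptprn, while the medians of the other libraries were 0. Pde10a, a phosphodiesterase of cyclic AMP and cyclic GMP, stood at 15.1, 57.2 and 17.3 CPM, a ratio of 3.8 (2.66 to 5.61) and 5.71 cleaned. Ralyl stood at 30.1, 90.3 and 20.8 CPM, a ratio of 3 (2.31 to 3.95) and 3.16 cleaned. Pmvk, an enzyme of the mevalonate pathway, stood at 65.8, 151 and 61.7 CPM, a ratio of 2.29 (1.91 to 2.77) and 2.18 cleaned. The imprinted noncoding RNA Meg3 stood at 357, 879 and 613 CPM, a ratio of 2.46 (2.28 to 2.66) and 3.14 cleaned. Pcp4l1 stood at 35.6, 83.5 and 27.1 CPM, a ratio of 2.35 (1.82 to 3.02) and 3.21 cleaned. Ptprn, Pde10a, Ralyl, Pmvk, Meg3 and Pcp4l1 thus each stood highest in the KO library.

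Mt1, Irf7 and Lgr5 were further members of that set. Mt1, a zinc-binding metallothionein, stood at 103, 705 and 185 CPM in all members and at 16, 101 and 17.5 CPM in the cleaned ones, so its level was lower in the cleaned barcodes, while the KO to WT ratio was 6.85 (6.02 to 7.82) and 6.28 cleaned. Mt1 was read in 25.7%, 47.0% and 28.3% of members, below the 80.6%, 58.2% and 48.6% of the other kept barcodes. Its relative Mt2 stood at 17.2, 128 and 26.3 CPM, a ratio of 7.45 (5.4 to 10.4) and 2.93 cleaned, and was read in 7.52%, 21.5% and 11.5% of members against 52.1%, 40.7% and 31.8% of other barcodes. Both shares lie below those of the other barcodes in every library, and the part of RNA from other cells in these values was not tested. Irf7, a transcription factor of the interferon response, stood at 8.72, 43.8 and 6.35 CPM, a ratio of 5.02 (3.12 to 8.13) and 4.68 cleaned. Irf7 was the only called gene among the 4 interferon genes measured, where 1.26% of all genes were called higher. Lgr5, an R-spondin receptor known as a Wnt target in other tissues, stood at 39.1, 86.1 and 41.1 CPM, a ratio of 2.2 (1.72 to 2.81) and 2.21 cleaned.

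The 12 named genes with the highest KO to WT ratios also held genes of other neurons. Pax6, a marker of amacrine cells, stood at 5.35, 51.5 and 21.9 CPM with a ratio of 9.62 (5.5 to 18) that was 3.36 cleaned. Pax6 is on the amacrine list used for cleaning, so its cleaned ratio is shaped by that choice. Basp1 (5.8, 1.9 cleaned), Nrxn2 (6.38, 2.83 cleaned) and Kcnc1 (5.17, 7.3 cleaned) are neuronal genes found in many retinal types. Hcrtr1 had 1.83, 19.4 and 11.2 CPM, Slc15a2 1.41, 15.2 and 17.3 CPM, Plk2 1.97, 15.2 and 4.16 CPM, Col17a1 3.8, 19.3 and 13.3 CPM and Ednrb 5.21, 25.9 and 8.53 CPM, all low transcripts with ratios of 10.6, 10.8, 7.71, 5.07 and 4.97. Cleaned ratios were 7.27 for Hcrtr1, 5.08 for Plk2, 5.76 for Col17a1 and 9.74 for Ednrb, and Slc15a2 was at 0 in the cleaned WT members. The amacrine marker sum was 553 CPM in KO and 133 CPM in WT members, and its part in these ratios was not tested beyond the cleaned values.

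The 5 named genes called lower in the KO library included regulators of membrane traffic and protein turnover. Rab11fip5, a Rab11 effector of endosome recycling, stood at 38.1, 12.6 and 43.5 CPM, a ratio of 0.331 (0.21 to 0.497) and 0.251 cleaned. Cdcp3 stood at 78.1, 31.9 and 58 CPM, a ratio of 0.408 (0.311 to 0.536) and 0.459 cleaned, and Rnf5, a ubiquitin ligase of the endoplasmic reticulum, at 50.4, 20.8 and 45.7 CPM, a ratio of 0.412 (0.292 to 0.576) and 0.38 cleaned. These 3 were called in the cleaned barcodes too. Snhg6 (64, 29 and 84.7 CPM) and the mitochondrial ribosome gene Mrps28 (64.3, 29.6 and 66.1 CPM) had ratios of 0.454 and 0.461, or 0.459 and 0.49 cleaned. Rd3l, a relative of the photoreceptor protein RD3, was just outside the call at 725, 367 and 863 CPM, a ratio of 0.507 (0.467 to 0.549) and 0.446 cleaned.

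The direction of rod transcripts in S-opsin cones differed between all and cleaned members. Cleaned members were chosen in part by their reads of rod genes such as Gnat1 and Pde6a, after the data were seen. The cleaned rod values are shaped by that choice and are a description. Of 16 rod phototransduction genes 15 had a ratio below 1 in KO against WT, with a median log2 ratio of -0.71, but among cleaned barcodes 12 of 15 were above 1 with a median of 0.46. Sag kept its direction, at 9029.6, 5609.7 and 6553 CPM with a ratio of 0.621 (0.608 to 0.635) and 0.642 cleaned, as did Gngt1, the γ subunit of rod transducin, at 0.51 and 0.769 cleaned.

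The cone cascade differed by small ratios between KO and WT S-opsin cones. Of 22 genes 19 were below a ratio of 1 and 0 were called, with a median log2 ratio of -0.20, or -0.09 with 12 of 21 below 1 when cleaned. Of all genes 1.26% were called higher and 0.0781% lower. Among opsin regulators 0 of 25 were called (median 0.06, from -0.11 to 0.15 over the other settings of the cone rule, depth and scaling). Thrb had a ratio of 0.912 (0.841 to 0.988), Rxrg 1.02 (0.821 to 1.26) and Crx 1.02 (0.952 to 1.09). Thrb in members with at least 10-fold more Opn1sw had a KO to WT ratio of 1.22. The oxidative phosphorylation list had 20 of 25 genes below 1 with a median of -0.09, and 19 of 25 with a median of -0.08 when cleaned.

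The hypoxia and photoreceptor injury lists were nearer to 0 or below it among cleaned barcodes. In KO against WT 29 of 37 hypoxia genes were above 1 (median 0.32, with 3 called higher), against 11 of 21 (median 0.00) when cleaned. Over all genes 1.26% were called higher, and the median log2 ratio was 0.12, or 0.04 cleaned. Ndufa4l2, a hypoxia-induced subunit of cytochrome oxidase, stood at 8.58, 34.8 and 6.13 CPM and was found in 10.2% of KO and 1.59% of WT members, below the 20.6% and 13.1% of other kept barcodes. Pfkp, a phosphofructokinase, had a ratio of 2.08 (1.82 to 2.38) and 1.06 cleaned, and Higd1a, a hypoxia-inducible mitochondrial protein, 1.61 (1.37 to 1.91) and 1.3 cleaned. In the photoreceptor injury list 12 of 16 genes were above 1 (median 0.66), against 4 of 9 (median -0.19) when cleaned. Cebpd had 5.08 and 1.16, Stat3 1.81 and 1.16, and Junb, an AP-1 factor, 2.28 and 1.33, in all and cleaned members.

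In the treated KO against the KO library 23 of 8670 genes were called higher (0.265%) and 55 lower (0.634%), with a median log2 ratio of -0.06. TMM scaling gave 32 and 44. Cleaned barcodes gave 10 and 25, of which 6 and 14 were called both times. In M-opsin cones 28 of 8521 genes were called higher (0.329%) and 55 lower (0.645%), 10 and 16 of them the same as in S-opsin cones. Of the S-opsin calls, 22 of 23 and 52 of 55 had the same direction in M-opsin cones. This comparison and the one of KO against WT share the KO library, so a high or low KO value enters both, and the values are given side by side without an overlap.

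The named gene with the highest treated KO to KO ratio was Hopx, a homeodomain-only protein that acts with other transcription regulators. It stood at 67.8, 41.2 and 193 CPM in WT, KO and treated KO, a treated to KO ratio of 4.69 (3.74 to 5.99), or 5.19 cleaned and 5.65 in M-opsin cones. Hopx reads were found in 73.8% of treated KO members, 32.2% of KO and 46.9% of WT members, against 21.2%, 14.7% and 33.3% of the other kept barcodes. Rab11fip5 had a treated to KO ratio of 3.45 (2.23 to 5.6), Rd3l 2.35 (2.15 to 2.56), Snhg6 2.92 (2.15 to 3.95) and Hpcal1, a neuronal calcium sensor at 62.2, 31.7 and 77.7 CPM, 2.45 (1.82 to 3.33). Nptx1, a neuronal pentraxin picked after its values were seen, stood at 97.9, 70.1 and 165 CPM, a ratio of 2.35 (1.92 to 2.88). These 6 were also called in the cleaned barcodes. Other named genes were Gdf15 (3.79), Npl (3.32), Bambi (3.18), Adcy6 (3.02), Adam9 (2.58) and Svil (2.52), each at less than 50 CPM. Their cleaned ratios were 2.28, 3.68, 3.58, 2.2, 2.04 and 2.27. In members with at least 10-fold more Opn1sw the ratio was 0.520 for Rab11fip5 and 0.473 for Bambi.

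Genes lower in the treated KO than in the KO library included several of those described above. Irf7 had a ratio of 0.145 (0.0636 to 0.282), or 0.0732 cleaned. That of Ralyl was 0.23 (0.152 to 0.339), or 0.245 cleaned, and that of Mt1 0.262 (0.23 to 0.298), or 0.174 cleaned. Ratios were lower than 1 as well for Pde10a 0.302 (0.189 to 0.465), Pmvk 0.41 (0.32 to 0.516) and Ptprn 0.419 (0.341 to 0.508). Drd4, a dopamine receptor of photoreceptors picked after its values were seen, stood at 444, 819 and 404 CPM, a ratio of 0.493 (0.449 to 0.541) and 0.358 cleaned. The treated to WT ratio of Drd4 was 0.91 (0.823 to 1.01). En2 was among the lowest ratios at 0.179 (0.0519 to 0.415), or 0.258 cleaned, and Vax2 had 0.458 (0.312 to 0.661), or 0.36 cleaned. The other named genes were Xlr3b (0.102), Mt2 (0.205), Pgbd1 (0.223), Cdk5rap1 (0.223), Dnaic1 (0.244), Mast4 (0.252), Crlf2 (0.267) and Plk2 (0.274), and each had a cleaned ratio between 0.0785 for Xlr3b and 0.331 for Mast4.

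**Figure D5:**
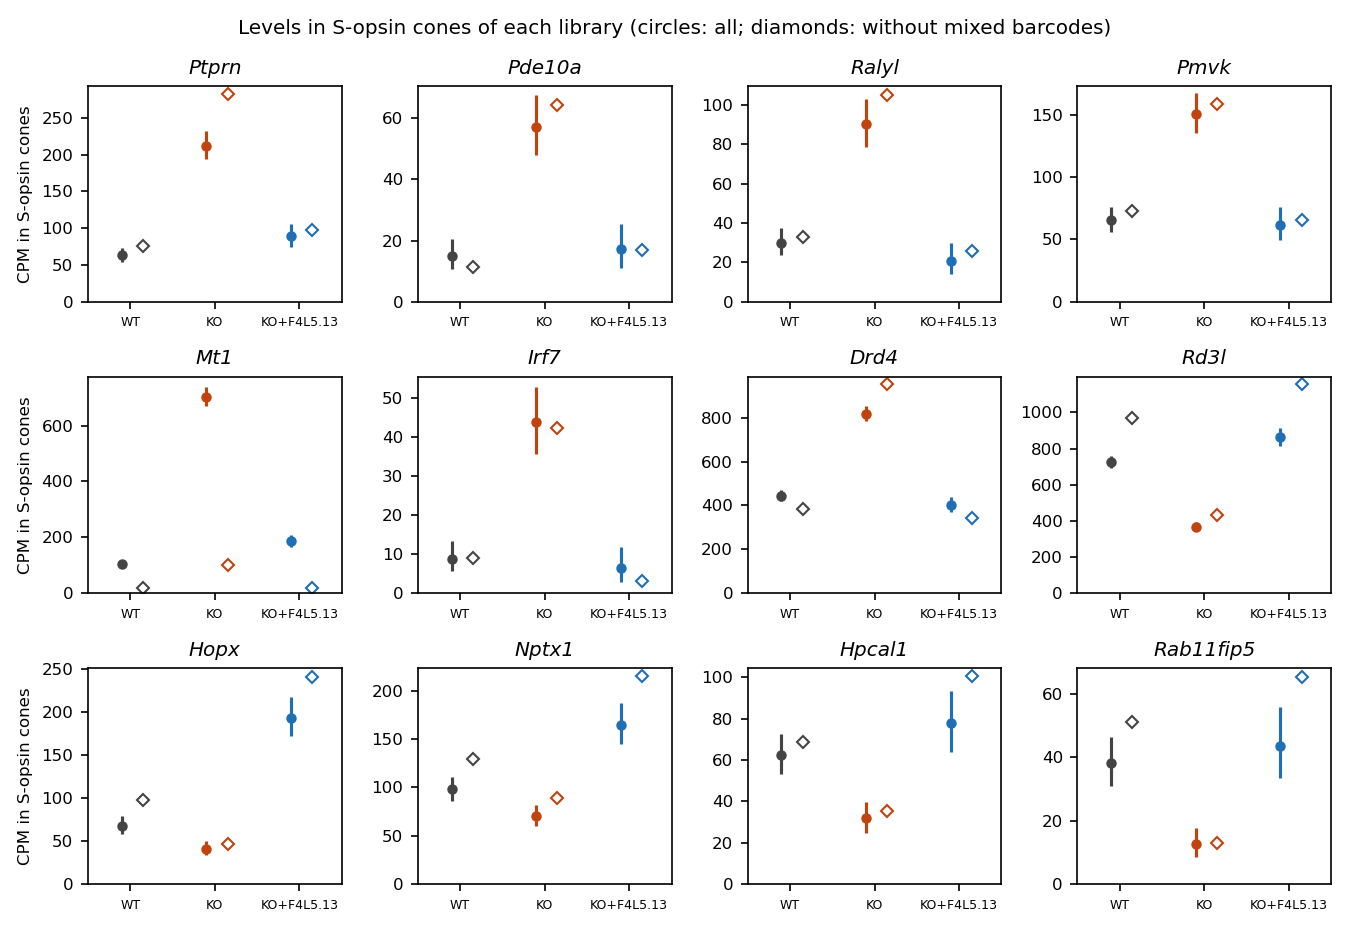
CPM of 12 genes in the S-opsin cones of the WT, KO and treated KO (KO+F4L5.13) libraries. Circles with bars show all members with 95% Poisson intervals, and open diamonds show the cleaned members. Ptprn, Pde10a, Ralyl, Pmvk, Mt1, Irf7 and Drd4 are highest in KO, and Rd3l, Hopx, Nptx1, Hpcal1 and Rab11fip5 are lowest there.

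As groups, glycolysis genes were mostly lower in the treated KO than in the KO library, 17 of 21 below 1 (median -0.16) and 13 of 19 when cleaned (median -0.20). Of these Pgk1 at 0.425 (0.285 to 0.63) and Pfkl at 0.498 (0.392 to 0.626) were called. Over all genes 0.634% were called lower and 0.265% higher, and the median was -0.06, or -0.04 cleaned. All 11 measured visual cycle genes had a treated to KO ratio above 1 (median 0.21, 0 called), and 3 of 4 among cleaned barcodes. Hypoxia genes were below 1 in 27 of 37 (median -0.24) and in 13 of 19 when cleaned (median -0.20). Immediate-early genes were above 1 in 10 of 11 (median 0.29) and in 8 of 10 when cleaned (median 0.59). Among them Fos had 1.86 (1.69 to 2.03) and 2.28 cleaned, and Egr1 1.55 (1.39 to 1.72) and 2.11 cleaned. In KO against WT 9 of 11 immediate-early genes were above 1 (median 0.30, 2 called higher), against 4 of 10 (median -0.08) when cleaned. Of all genes 1.26% were called higher in that comparison, with a median of 0.12.

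Treated KO and WT S-opsin cones differed in fewer genes, 16 higher (0.193%) and 7 lower (0.0844%) of 8293, with 7 and 14 under TMM scaling and 3 and 3 among cleaned barcodes. This comparison shares a library with each of the other two. Hopx (ratio 2.85, 2.35 to 3.46) and the tetraspanin Cd63 (55.4, 117 and 136 CPM, ratio 2.45, 1.97 to 3.06) were called higher both times, Cd63 being picked after its values were seen. Slc24a3 (2.9), Map3k8 (2.76), Nrxn2 (2.75) and Septin3 (2.69) made up the rest of the highest 5. In cleaned barcodes Map3k8 had 3.15 and Nrxn2 1.41, while Slc24a3 and Septin3 had too few WT reads there for a ratio. The ratio of Map3k8 was 0.553 in members with at least 10-fold more Opn1sw. Named lower genes were Cdk5rap1 (0.248) and Olfr77 (0.422). Immediate-early genes were above 1 in 11 of 11 measured (median 0.73) and in 8 of 9 when cleaned (median 0.56), with Fos at 1.66 (1.52 to 1.8), Egr1 at 1.91 (1.71 to 2.12) and Ier2 at 2.12 (1.71 to 2.66).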

How the data were processed

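The values are estimated counts per gene and barcode as the authors deposited them, 1 table for each of 3 libraries made with 10x Genomics 3′ v3 kits, per the labels' protocols. Partek 9.0 and mm10 are named in the submitters' processing notes, and the strand setting and any collapsing of molecular identifiers are not given in the sources used here. All values were rounded, since 2.39%, 2.33% and 2.34% of the entries above 0 were not whole. Only 55.2%, 54.7% and 50.1% of the values in rare genes were 1, so the values were taken as reads, and counting intervals used reads divided by 2.73, 2.76 and 3.16. S-opsin and M-opsin cones were compared by edgeR 4.0.16 (R 4.3.3, quasi-likelihood test, TMM, library as a block, Benjamini-Hochberg adjustment over all genes) on sums per library, with DESeq2 1.42.0 as an alternative. Between libraries, ratios of CPM had exact conditional binomial 95% intervals (scipy 1.17.1), which cover counting error only. The number of animals behind a library is not given, so p-values measure the spread between these 3 libraries. Replicate numbers pair no samples, and the block is the library that both kinds of cone share. Named genes were the 12 highest and 12 lowest folds past each threshold (5 and 5 for treated KO against WT), leaving out genes of the rule, rod markers, mitochondrial, ribosomal and unnamed genes between libraries, plus the largest and best known members of each list. Members and lists were chosen with earlier results of these data known. The scripts were tested on simulated data. Some genes that the rule names are not reported here.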

Additional observations from a re-analysis of the deposited data

How the results depend on the processing

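No paired analysis was possible between libraries because each group is 1 library. In S-opsin against M-opsin cones the library is the block, and without that block 18 genes passed in place of 179. Leaving out 1 library gave 80 to 262 genes, and testing genes with low sums too gave 360. Limiting both kinds to cones with a leading opsin at least 10 times the other gave S-opsin shares of 27.2%, 50.9% and 11.6% in the WT, KO and treated KO libraries. Under that limit 34 genes were called in KO against WT (120 in all members), 19 in treated KO against KO (78) and 8 in treated KO against WT (23). It also reversed the KO to WT ratio of Thrb (1.22), the treated KO to KO ratios of Bambi (0.473) and Rab11fip5 (0.520) and the treated KO to WT ratio of Map3k8 (0.553). Leaving out barcodes with markers of cells other than rods and Müller glia gave 55 calls in KO against WT and 13 in treated KO against WT. Leaving out rod and Müller mixtures as well, a setting chosen after seeing the data, gave 37, 35 and 6 calls in the same order of comparisons. Thinning each barcode to 3000 reads gave 10, 10 and 1 calls. The cause of these shifts was not tested, except that thinning and leaving out barcodes leave fewer reads. Over the settings, 1912 values of single genes and list medians stayed the same, 161 moved, 125 no longer passed and 4 reversed. A ratio stayed the same within its main interval, and a list median when close to its main value. A difference of S-opsin against M-opsin cones stayed the same when it kept its sign and its side of the threshold. The numbers of called genes and the S-opsin shares are not in these counts. Of the settings run, thinning, which lowers the depth, left the fewest calls in each of the 3 comparisons of libraries.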
